A study of Mus musculus with 7 samples.

Results

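The subject is a set of 10 mouse genes of glutathione metabolism and of the NRF2 response, measured in cells sorted from femurs for the surface proteins CD24 and CD29 (integrin beta 1). The genes are Gclc, Gclm, Slc7a11, Mgst1, Mgst3, Gstm1, Gsta4, Gstp1, Nqo1 and Txnrd1, 10 of the 42687 gene identifiers in the count table. They were chosen by symbol, with earlier results of these samples known, among them fold changes between the diets. Their differences between the diets are therefore a description and no test. The cells came from C57BL/6 mice that entered the study at 3 months of age and were kept on a high fat diet (HFD, 60% fat) or a low fat diet (LFD, 10% fat) for 4 weeks. There were 3 HFD libraries, numbered 2 to 4, and 4 LFD libraries, numbered 1 to 4, and the labels call the sorted population skeletal stem cells.

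Glutathione is a small thiol peptide that buffers peroxides and is joined to reactive compounds by glutathione transferases. Cells make it from cysteine, which the transporter encoded by Slc7a11 brings in as cystine, and the ligase made of the Gclc and Gclm products catalyses the rate-limiting step. The transcription factor NRF2 (gene Nfe2l2) is held down by KEAP1 and, when released, binds antioxidant response elements near many of these genes. In bone marrow, red cell precursors, granulocytes and stromal cells all use these enzymes, so that the genes are not markers of 1 cell type.

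The antioxidant response element core TGACNNNGC, read on both strands, was looked for in the RefSeq promoter windows of build GRCm38.p6, which run from 250 bases before to 50 bases after an annotated start. Of the 10 genes 8 had a window in that table, with 12 windows in all, and 3 genes had 1 match each. A match was held by 12.4% of all promoter windows in that reference, and by 13.99% of all genes. No match in these windows overlapped the AP-1-like letters TGANTCA. The windows with a match are printed with that of Slc7a11, the gene with the largest fold change, which held none. They are written 5′ to 3′ on the strand of the gene, and capitals mark the core, which lies on the opposite strand in each case, with its first printed base at -56 from the start in Mgst1, -134 in Gclm and -92 in Txnrd1. Mgst1 lies at chr6:138140277-138140576 (plus strand, the first of 2 windows), Gclm at chr3:122245307-122245606 (plus), Txnrd1 at chr10:82858956-82859255 (plus, the second of 3 windows) and Slc7a11 at chr3:50443564-50443863 (minus).
Mgst1: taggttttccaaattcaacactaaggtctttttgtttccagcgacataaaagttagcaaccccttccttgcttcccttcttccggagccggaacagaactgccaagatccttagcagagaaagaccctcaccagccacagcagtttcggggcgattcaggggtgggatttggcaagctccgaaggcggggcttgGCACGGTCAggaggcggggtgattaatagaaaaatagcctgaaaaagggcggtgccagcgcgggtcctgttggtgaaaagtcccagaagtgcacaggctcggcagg
Gclm: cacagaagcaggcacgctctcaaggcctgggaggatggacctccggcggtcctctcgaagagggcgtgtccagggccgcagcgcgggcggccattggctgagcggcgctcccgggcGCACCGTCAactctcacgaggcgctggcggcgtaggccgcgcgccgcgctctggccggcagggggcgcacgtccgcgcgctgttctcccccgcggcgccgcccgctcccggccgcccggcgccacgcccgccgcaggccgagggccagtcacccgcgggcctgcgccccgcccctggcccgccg
Txnrd1: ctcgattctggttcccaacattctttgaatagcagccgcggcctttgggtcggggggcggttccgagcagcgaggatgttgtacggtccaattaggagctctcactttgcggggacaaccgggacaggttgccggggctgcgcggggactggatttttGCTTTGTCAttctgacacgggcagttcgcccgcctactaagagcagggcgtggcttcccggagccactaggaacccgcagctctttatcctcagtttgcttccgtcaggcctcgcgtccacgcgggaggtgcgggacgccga
Slc7a11: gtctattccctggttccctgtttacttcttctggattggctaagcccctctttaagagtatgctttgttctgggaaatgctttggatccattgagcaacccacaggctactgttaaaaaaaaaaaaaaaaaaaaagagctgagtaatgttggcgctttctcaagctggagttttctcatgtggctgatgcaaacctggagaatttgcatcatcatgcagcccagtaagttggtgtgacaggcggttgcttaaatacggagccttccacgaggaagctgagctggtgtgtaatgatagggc

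Total counts per library ranged from 20885803 to 24681838 in HFD and from 17391613 to 23172976 in LFD. The libraries of the diets also differed in sex-linked transcripts, with 0 counts of Xist in every HFD library and 257 to 526 in the LFD libraries, and 2494 to 3405 counts of 4 Y-linked genes in HFD libraries and 1 to 5 in LFD libraries. The labels give no sex, and diet and sex cannot be told apart here. Levels are given as CPM, the count scaled by the library total and its TMM factor. The sorting genes were present in all libraries, with Cd24a at 774 to 3004 CPM in HFD and 1524 to 4852 CPM in LFD, and Itgb1 at 380.0 to 497 CPM in HFD and 368 to 488 CPM in LFD. Markers of other cells were present as well. The 10 erythroid markers took 2.62% to 10.5% of counts in HFD and 10.3% to 14.4% in LFD, with the lowest share in HFD 2 and the shares of HFD 4 and LFD 1 side by side. The 10 neutrophil markers took 0.934% to 1.52% of counts in HFD and 0.101% to 0.508% in LFD, and the 8 reticular stroma markers 0.152% to 0.307% in HFD and 0.0162% to 0.0486% in LFD, and neither pair of ranges overlapped. The leukocyte gene Ptprc measured 49.6 to 55.9 CPM in HFD and 0.117 to 24.8 CPM in LFD. Chondrocyte markers took 3.34% to 6.75% of counts in HFD and 2.43% to 4.38% in LFD, and osteoblast markers 2.53% to 4.12% in HFD and 1.38% to 2.60% in LFD. Periosteal and fibroblast markers took 0.136% to 0.228% in HFD and 0.175% to 0.256% in LFD, and muscle, monocyte, B lineage, endothelial and mast cell markers each stayed at or below 0.0521% in every library. At these low shares the diets did not overlap either for monocyte and B lineage markers, higher in HFD, and for muscle and endothelial markers, lower in HFD. The markers Ms4a2 of mast cells and Myh4 of muscle had no count in any library.

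In a fit across all 14304 genes tested (edgeR's quasi-likelihood test, adjusted p under 0.05), 5 genes passed, 0.0350% of those tested, and 0 of the 10 members were among them. Of the 5 genes, 4 were higher and 1 lower in HFD, and 0 genes passed when Xist and the 4 Y-linked genes were left out of the adjustment. At an unadjusted p under 0.05 there were 3 members (Mgst1 and Slc7a11 higher, Gclc lower), where 7.53% of all genes had such a p. DESeq2 called 2 members, Mgst1 and Slc7a11, where it called 2.09% of the genes it gave an adjusted p, and limma-voom with quality weights called 1, Mgst1, where it called 0.196% of all genes. The diets did not overlap for 3 members (Mgst1, Slc7a11 and Txnrd1), where 11.9% of all genes did not overlap. Of the 10 members 4 were higher and 6 lower in HFD, with a median log2 fold change of -0.29, where 51.5% of all tested genes were higher and the median was 0.02. All 10 passed the filter on low counts, but the LFD libraries held at most 17 counts of Slc7a11 and, in LFD 2 and LFD 3, 0 counts of Gsta4, so that these genes passed mainly through the HFD libraries.

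Gclc encodes the catalytic subunit of glutamate-cysteine ligase (chromosome 9, 77754535 to 77794485, plus strand). It measured 73.1, 189 and 228 CPM in HFD 2, 3 and 4, and 211, 518, 402 and 317 CPM in LFD 1, 2, 3 and 4. HFD 2 was lowest by a wide margin, and HFD 4 lay above LFD 1, so that the diets overlapped. The log2 fold change was -1.15 ± 0.45 (SE), and -0.80 without HFD 2. In bulk samples, fewer cells of a type and less RNA per cell cannot be told apart, which holds for every value here.

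Gclm encodes the modifier subunit, which raises the activity of the catalytic subunit (chromosome 3, 122245557 to 122270732, plus strand). It measured 137, 477 and 652 CPM in HFD 2, 3 and 4, and 427, 907, 1149.6 and 730.2 CPM in LFD 1, 2, 3 and 4. The libraries fell nearly in the order seen for Gclc, with HFD 2 lowest and LFD 1 below HFD 3. The log2 fold change was -0.93 ± 0.55, and -0.51 without HFD 2. Of its merged exons 4.71% overlap an antisense transcript and 3.88% a pseudogene on the same strand, and reads there are uncertain. The strand setting is not given in the sources used here, and no setting would separate the pseudogene. Per exon length, Gclm stood above Gclc in every library, at 1.12, 1.51 and 1.71 times in HFD 2, 3 and 4 and 1.21, 1.05, 1.71 and 1.38 times in LFD 1, 2, 3 and 4. That ratio of the subunit levels did not order the libraries by diet.

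Slc7a11 encodes the cystine and glutamate exchanger xCT (chromosome 3, 49892526 to 50443614, minus strand). It had 266, 131 and 57 counts in HFD 2, 3 and 4, against 9, 3, 2 and 17 counts in LFD 1, 2, 3 and 4. In CPM these are 9.30, 6.33 and 2.72 in HFD and 0.351, 0.188, 0.125 and 0.840 in LFD. Every HFD library lay above every LFD library, with the smallest gap between HFD 4 and LFD 4, and the spread within HFD was wide (coefficient of variation 53.9%). The log2 fold change was 3.99 ± 0.90, the largest of the 10, at a low level that makes it imprecise. The HFD libraries had the same order in Slc7a11 as in the reticular stroma share (0.307%, 0.228% and 0.152% in HFD 2, 3 and 4), while LFD 4, highest of its diet for Slc7a11, had 0.0364% and LFD 1 had 0.0486%, and the part of stroma in the difference was not tested. The partner chain of xCT, encoded by Slc3a2, measured 336 ± 126 CPM in HFD and 450 ± 132 CPM in LFD (SD, n = 3 and n = 4), with a log2 fold change of -0.42 ± 0.37.

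**Figure D1:**
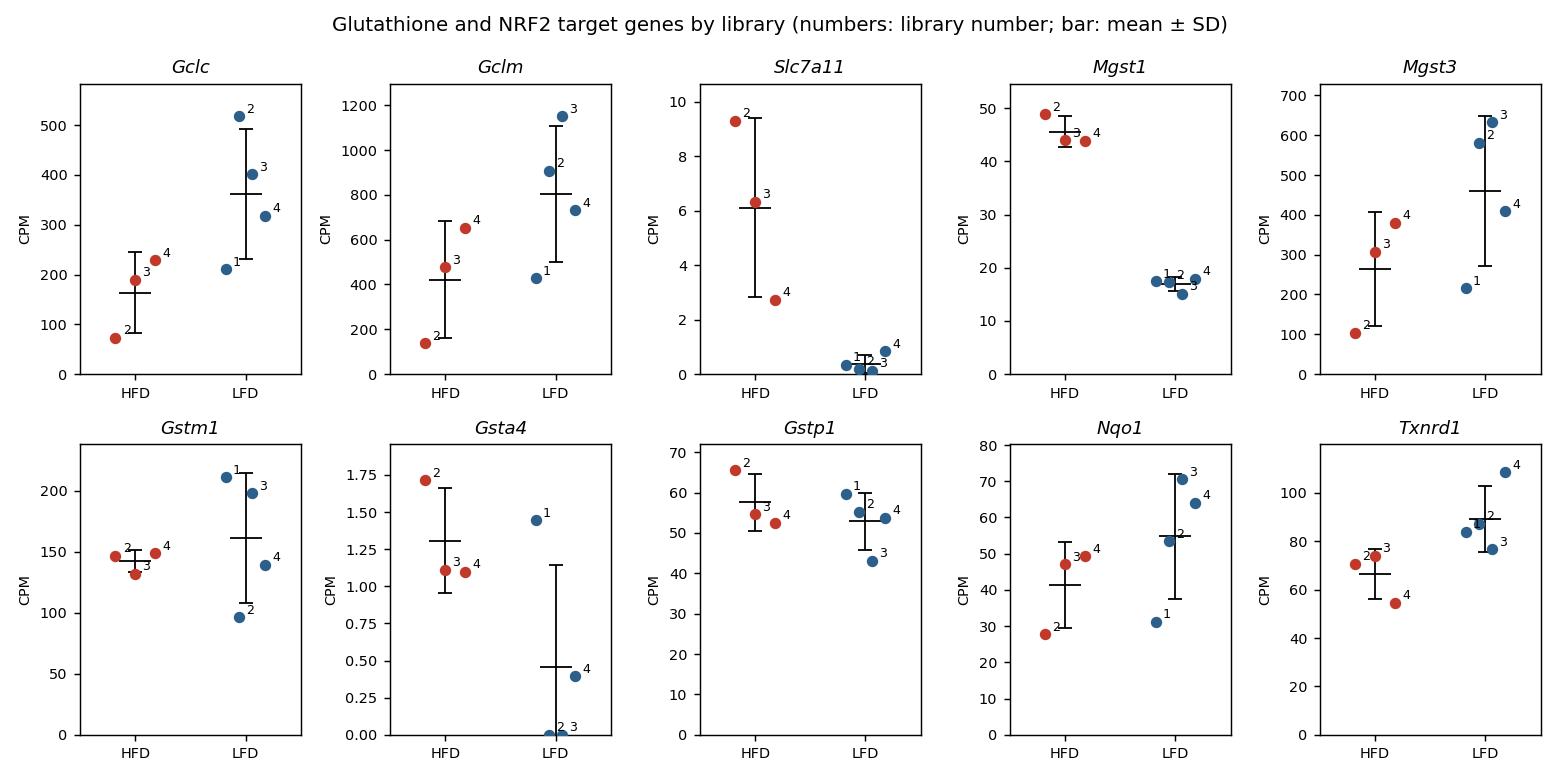
CPM (TMM-scaled, linear axes from 0) of the 10 genes in each library, with HFD left of LFD, library numbers beside the points and black bars for mean ± SD (n = 3 and n = 4; the lower bar of Gsta4 in LFD ends at the axis). Mgst1 and Slc7a11 are higher in every HFD library, Txnrd1 is lower in every HFD library, and in Gclc, Gclm, Mgst3 and Nqo1 the libraries HFD 2 and LFD 1 lie at the bottom of their diets.

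Mgst1 encodes a microsomal glutathione transferase that also reduces lipid peroxides (chromosome 6, 138140316 to 138156755, plus strand). It measured 48.9, 44.0 and 43.9 CPM in HFD 2, 3 and 4, against 17.4, 17.2, 15.1 and 17.9 CPM in LFD 1, 2, 3 and 4. The libraries formed a tight cluster in each diet, with coefficients of variation of 6.28% in HFD and 7.33% in LFD, and the gap between the clusters was many times that spread. The log2 fold change was 1.43 ± 0.19, and it stayed between 1.37 and 1.47 in the 7 fits that left out a library. The genes whose profile over the 7 libraries was most like that of Mgst1, by Pearson's r of log2 CPM among 8990 genes with a mean of at least 8 CPM, were the Y-linked Eif2s3y (0.988), Uty (0.980) and Ddx3y (0.978). Those genes are at or near 0 in LFD, so that the likeness is that of a step between the groups and says nothing of shared function.

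Mgst3 belongs to the same family of membrane proteins (chromosome 1, 167371966 to 167393841, minus strand). It measured 103, 307 and 381 CPM in HFD 2, 3 and 4, and 216, 581, 632 and 409 CPM in LFD 1, 2, 3 and 4. The diets overlapped, since LFD 1 lay below HFD 3 and HFD 4. The log2 fold change was -0.80 ± 0.52, and -0.42 without HFD 2. The sign was thus opposite to that of Mgst1, and the spread between libraries of 1 diet was several times larger (54.4% in HFD and 41.0% in LFD).

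Gstm1 encodes a cytosolic transferase of the mu class (chromosome 3, 108012255 to 108017973, minus strand). It measured 147, 132 and 149 CPM in HFD 2, 3 and 4, and 211, 96.3, 198 and 139 CPM in LFD 1, 2, 3 and 4. The HFD values lay inside the LFD range, and the log2 fold change was -0.18 ± 0.29, between -0.36 and -0.0170 with 1 library left out. LFD 1, low for the ligase subunits, was the highest library here. Other mu class genes lie beside Gstm1 and are alike in sequence, so that reads may have been shared or dropped among them.

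Gstp1 encodes the pi class transferase (chromosome 19, 4035407 to 4037985, minus strand). It measured 65.5, 54.7 and 52.5 CPM in HFD 2, 3 and 4, and 59.7, 55.3, 43.1 and 53.7 CPM in LFD 1, 2, 3 and 4. The groups overlapped and the log2 fold change was 0.12 ± 0.19, a difference smaller than the spread between libraries, and 0.0113 without HFD 2. Its neighbour Gstp2 is a near copy, and the split of reads between them is uncertain.

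Gsta4 encodes an alpha class transferase that acts on the lipid peroxidation product 4-hydroxynonenal (chromosome 9, 78182774 to 78209349, plus strand). It had 49, 23 and 23 counts in HFD 2, 3 and 4, and 37, 0, 0 and 8 counts in LFD 1, 2, 3 and 4. A count of 0 allows up to 0.188 CPM in LFD 2 and 0.187 CPM in LFD 3, against 1.71, 1.11 and 1.10 CPM in HFD 2, 3 and 4 and 1.44 CPM in LFD 1. LFD 1 was thus above HFD 3 and HFD 4, and the log2 fold change of 1.47 ± 1.56 had an error larger than itself, and was 3.22 without LFD 1. These limits cover counting error only.

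Nqo1 encodes a quinone reductase that is often read as an NRF2 reporter gene (chromosome 8, 107388225 to 107403206, minus strand). It measured 27.8, 47.0 and 49.3 CPM in HFD 2, 3 and 4, and 31.3, 53.4, 70.5 and 64.1 CPM in LFD 1, 2, 3 and 4. The diets overlapped through LFD 1, and the log2 fold change was -0.41 ± 0.33, with -0.19 when HFD 2 was left out and -0.26 when LFD 3 was.

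Txnrd1 encodes the cytosolic thioredoxin reductase, a selenoprotein that keeps thioredoxin reduced (chromosome 10, 82833951 to 82897712, plus strand). It measured 70.7, 73.9 and 54.5 CPM in HFD 2, 3 and 4, against 84.0, 87.2, 76.6 and 108 CPM in LFD 1, 2, 3 and 4. Every HFD library was below every LFD library, but HFD 3 and LFD 3 were separated by less than the SD of either diet. The log2 fold change was -0.42 ± 0.20.

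Levels were compared between the genes per kb of merged exon. Mgst3 had the highest level by its mean over the 7 libraries (342 CPM per kb), followed by Gstm1 (104.0), Gclm (102) and Gclc (73.5), then Gstp1 (35.5), Nqo1 (31.6), Mgst1 (14.5), Txnrd1 (11.2), Gsta4 (0.650) and Slc7a11 (0.204). Mgst3 held the first place in every library but HFD 2, where Gstm1 was first. Gstm1 and Gclm could not be told apart by their spread, since they ranged from 65.4 to 143 and from 21.7 to 183 CPM per kb, and neither could Gstp1 and Nqo1 (27.8 to 42.3 and 17.9 to 45.4). Mgst1 and Txnrd1 were in different orders by diet, with 22.6 ± 1.42 and 9.37 ± 1.47 CPM per kb in HFD and 8.41 ± 0.617 and 12.6 ± 1.93 CPM per kb in LFD. Gsta4 and Slc7a11 held the last places in every library, whose order between them changed in LFD 2 and LFD 3, where Gsta4 had no counts.

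**Figure D2:**
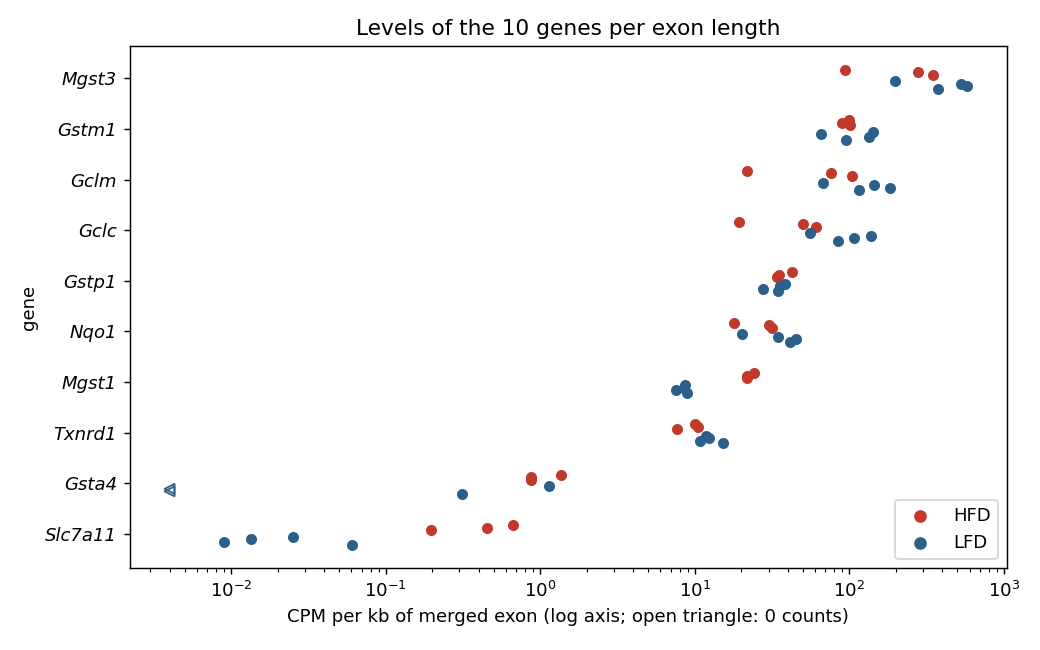
Levels of the 10 genes in CPM per kb of merged exon on a log axis, 1 point per library, with HFD points above LFD points in each row and open triangles for 0 counts. Mgst3 is at the top with a mean of 342 and Slc7a11 at the bottom with a mean of 0.204 CPM per kb, and the points of the diets are apart for Mgst1, Slc7a11 and Txnrd1.

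Across the 7 libraries Gclc, Gclm, Mgst3 and Nqo1 varied together. By Pearson's r of log2 CPM, given as a description, Gclm and Mgst3 had 0.986, Gclc and Gclm 0.960, Gclc and Mgst3 0.955, Mgst3 and Nqo1 0.917, Gclm and Nqo1 0.891 and Gclc and Nqo1 0.809. As deviations from the diet means the same pairs had 0.984, 0.953, 0.973, 0.904, 0.880 and 0.806. Mgst1 and Slc7a11, whose diets did not overlap, had 0.773 as deviations, and Gstp1 was opposite to Gclm (-0.846, and -0.843 as deviations). The libraries share depth and cell content in all of these values.

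The libraries' order in Gclc, Gclm, Mgst3 and Nqo1 was close to that of the erythroid share, and the relation was examined after that order was seen. The p-values below are therefore a description. Their adjustment covers the 10 genes but not the choice of the erythroid list, and the permutation ignores diet. Since the 4 genes vary together, they are not separate findings. Over the 7 libraries, with 10 relations computed, the log2 level rose with the log2 erythroid share for Gclm (Pearson r = 0.962, exact permutation p = 0.00179, adjusted 0.00728, Spearman rho = 0.964, exact p = 0.00278, adjusted 0.00926). Gclc had r = 0.939 (exact permutation p = 0.000794, adjusted 0.00728) and rho = 0.964 (exact p = 0.00278). Mgst3 had r = 0.909 (exact permutation p = 0.00694, adjusted 0.0139) and rho = 0.964 (exact p = 0.00278). Nqo1 had r = 0.755 (exact permutation p = 0.0262, adjusted 0.0437) and rho = 0.929 (exact p = 0.00675). Without HFD 2 and HFD 3, the libraries farthest from the median share, r was 0.925 for Gclm, 0.864 for Gclc, 0.884 for Mgst3 and 0.723 for Nqo1. Taken as deviations from the diet means, r was 0.944, 0.888, 0.880 and 0.706 for the same genes, so that the relation was also there among libraries of the same diet. Both measures of a point come from the same library and share its depth. For Mgst1, Slc7a11 and Txnrd1 the diets did not overlap, so that no pooled r is given. As deviations from the diet means, r was -0.690 for Mgst1, -0.786 for Slc7a11 and -0.469 for Txnrd1, opposite in sign to the 4 genes above. Pooled over the diets, the exact permutation test of r passed for Mgst1 (adjusted p = 0.0124) and Slc7a11 (adjusted p = 0.00728), also in the opposite direction, and missed for Txnrd1 (adjusted p = 0.521). In that pooled test diet and erythroid share cannot be told apart. For Gstm1 (r = 0.0512, rho = 0, exact permutation p = 0.891 and 1.0) and Gstp1 (r = -0.737, exact permutation p = 0.105, rho = -0.679, exact p = 0.1095) the test did not pass. Gsta4 had r = -0.688 (exact permutation p = 0.0548) with rho = -0.955 (exact p = 0.00397, adjusted 0.00992), and its ranks rest on the libraries with few or no counts.

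**Figure D3:**
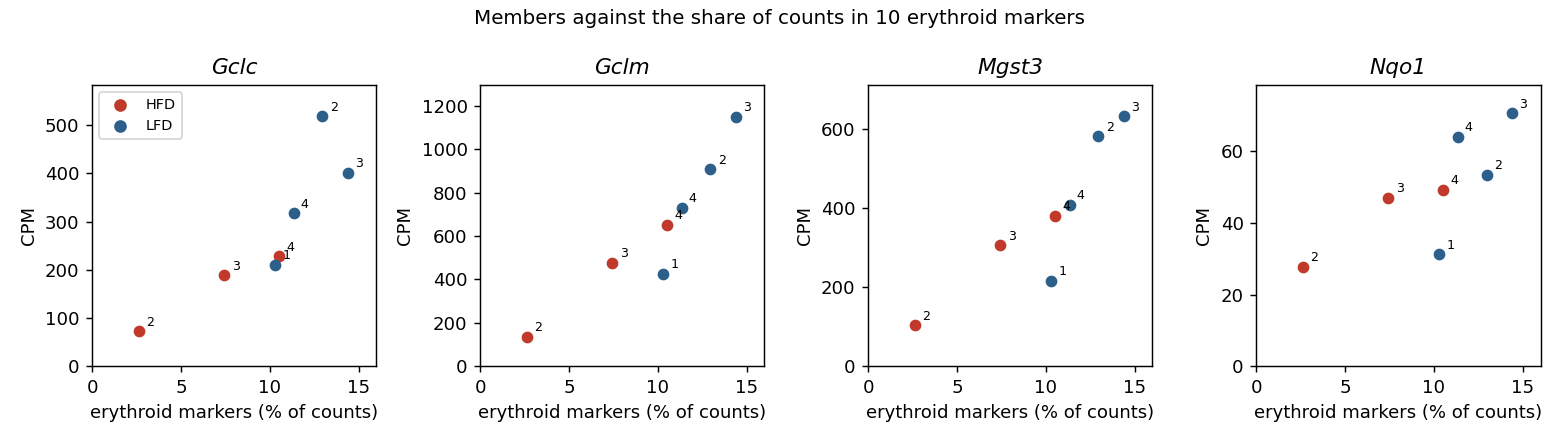
CPM of Gclc, Gclm, Mgst3 and Nqo1 against the percent of counts in 10 erythroid markers, 1 point per library with its number, red for HFD and blue for LFD. HFD 2, with an erythroid share of 2.62%, is lowest in each panel, and the libraries with 12.96% and 14.4% (LFD 2 and LFD 3) are highest in all panels but that of Nqo1, where LFD 4 is above LFD 2.

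The profile most like that of Gclm, the member with the highest mean CPM, belonged to Usp15 (r = 0.999), Smdt1 (0.998) and Isg20 (0.998) over the same 7 libraries and 8990 genes. HFD 2 was also the lowest library, and LFD 2 and LFD 3 the highest, for Gpx1, Cat and Prdx2, antioxidant genes that red cell precursors express. Gpx1 (glutathione peroxidase 1) measured 1979, 6388 and 9069.5 CPM in HFD 2, 3 and 4 and 7470.5, 13632, 15528 and 9838 CPM in LFD 1, 2, 3 and 4, and its log2 fold change was -0.999 ± 0.55. Cat (catalase) had -0.90 ± 0.45 and Prdx2 (a peroxiredoxin abundant in red cells) -0.79 ± 0.54, and none of the 3 passed the test. Without HFD 2 their log2 fold changes were -0.59 for Gpx1, -0.56 for Cat and -0.39 for Prdx2.

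Fits with marker shares beside diet, added after seeing the data, gave these differences. With the log2 erythroid share in the model, the log2 fold change was -0.32 ± 0.35 for Gclc, 0.14 ± 0.32 for Gclm, 0.18 ± 0.39 for Mgst3 and 0.10 ± 0.36 for Nqo1. The genes whose diets did not overlap kept their sign, with 1.32 ± 0.23 for Mgst1, 2.99 ± 1.04 for Slc7a11 (against 3.99 with diet alone) and -0.58 ± 0.26 for Txnrd1. Cat was at -0.05 in that model, against -0.90 with diet alone. With the neutrophil share in the model, Mgst1 was at 1.42 ± 0.46 and Slc7a11 at 2.93 ± 1.75, and the errors were larger for all 10 genes, in a model where the share itself did not overlap between the diets. No member passed the adjusted threshold in either model (edgeR), and what part any cell type has in these differences was not tested further.

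**Figure D4:**
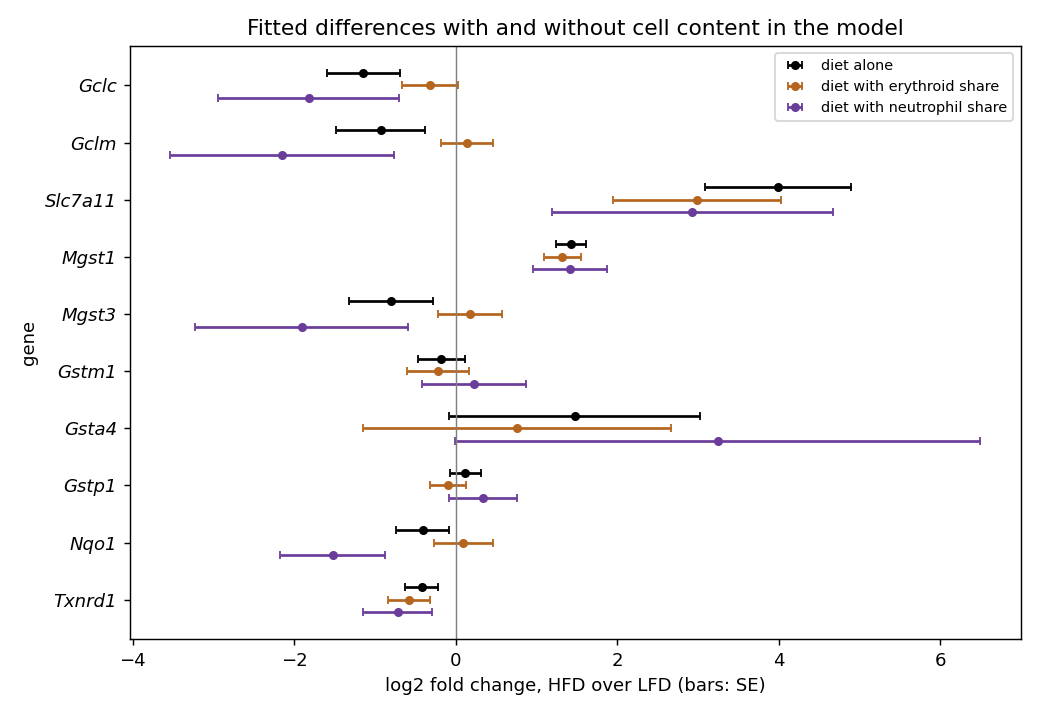
Log2 fold changes, HFD over LFD, of the 10 genes with SE as bars, from edgeR fits with diet alone (black), with the erythroid share (brown) and with the neutrophil share (purple) in the model. With the erythroid share, Gclm, Mgst3 and Nqo1 lie at 0.14, 0.18 and 0.10, and Mgst1 at 1.32 against 1.43 with diet alone.

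The wider pathway was described by lists, and no gene of them passed the adjusted threshold of edgeR. DESeq2 called 5 of their genes, all higher in HFD, where it called 2.09% of all genes it gave an adjusted p. They were the members Mgst1 and Slc7a11, chosen with fold changes known, and the non-members Alox5ap (adjusted p = 0.0117), Prdx5 (0.0109) and G6pdx (0.0468). By list, DESeq2 called 1 of 16 tested genes of glutathione synthesis and turnover and 2 of 5 of the membrane transferase family. It called 1 of 17 of the thioredoxin system and 1 of 10 of NADPH supply. In the lists of 18 other transferases, 5 peroxidases, 16 regulators and 23 further NRF2 targets it called 0. Over all genes, 741 were higher and 336 lower at an unadjusted p under 0.05 in edgeR. Among 16 tested genes of glutathione synthesis and turnover, 8 were higher and 8 lower in HFD (median log2 fold change -0.01). Gsr, the reductase that regenerates reduced glutathione, measured 171 ± 12.5 CPM in HFD and 89.0 ± 27.5 CPM in LFD (SD, n = 3 and n = 4), with a log2 fold change of 0.94 ± 0.26 and an adjusted p of 0.380 in edgeR, and 0.03 with the neutrophil share in the model. Chac2, which degrades glutathione, had -0.97 ± 0.57, and the exporter Abcc1 -0.03 ± 0.54.

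Among 18 tested glutathione transferase genes outside the membrane family, 8 were higher and 10 lower (median -0.01), and the most abundant non-members were Gstm5 (-0.16 ± 0.24), Gstt1 (-0.91 ± 0.42), Gsto1 (-0.01 ± 0.49) and Gstz1 (0.05 ± 0.58). At an unadjusted p under 0.05 in edgeR, 0 were higher and 1 lower, Gstp3 (-1.61 ± 0.69). The membrane family gave 4 higher and 1 lower of 5 tested. Of these, 2 belong to the 10 genes, Mgst1 and Mgst3, and the median of 1.43 is the value of Mgst1 itself. The 3 others were all higher, with a median of 1.496, against a median of 0.02 over all genes. Alox5ap, which leukocytes need for leukotriene synthesis, measured 20.4 ± 2.24 CPM in HFD and 3.38 ± 3.02 CPM in LFD, with a log2 fold change of 2.59 ± 0.66 (adjusted p = 0.318 in edgeR), and 0.53 with the neutrophil share in the model. Mgst2 measured 11.005 ± 1.17 CPM in HFD and 4.50 ± 2.24 CPM in LFD (1.29 ± 0.48), and 0.91 with that share. The prostaglandin E synthase gene Ptges had 1.496 ± 0.75, and 1.13 to 2.30 over the 17 alternatives described below, that model among them. Values with the neutrophil share are printed here without an error, which in that model was larger for all 10 members. Mgst3 was the tested member of that family with a lower value in HFD.

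Among 5 glutathione peroxidases 2 were higher and 3 lower (median -0.28). Gpx3, the secreted enzyme, measured 3300.5 ± 158 CPM in HFD and 4000.1 ± 1299 CPM in LFD (-0.28 ± 0.33), Gpx4, which reduces lipid peroxides in membranes, had -0.44 ± 0.32, and Gpx8 of the endoplasmic reticulum had 0.74 ± 0.23 (adjusted p = 0.435 in edgeR). Over the 17 alternatives Gpx8 ranged from 0.46 to 0.89. Of 17 genes of the thioredoxin system 7 were higher and 10 lower (median -0.03). Prdx1 had 0.13 ± 0.25, Prdx3 -0.59 ± 0.41 and Glrx5, which serves iron-sulfur cluster assembly, -0.96 ± 0.50. Prdx5, a peroxiredoxin named after its values were seen, since DESeq2 called it, measured 121 ± 15.7 CPM in HFD and 53.2 ± 16.7 CPM in LFD, with a log2 fold change of 1.18 ± 0.28 (adjusted p = 0.285 in edgeR). Prdx5 and Glrx (1.25 ± 0.42) were the 2 higher genes of this list at an unadjusted p under 0.05 in edgeR, with 0 lower.

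Nfe2l2, the gene of NRF2 itself, measured 77.1, 76.0 and 73.2 CPM in HFD 2, 3 and 4, and 79.5, 86.0, 86.7 and 82.0 CPM in LFD 1, 2, 3 and 4, which is a log2 fold change of -0.15 ± 0.16. The diets did not overlap, and the difference was smaller than its SE. Keap1 measured 49.4 ± 6.78 CPM in HFD and 51.8 ± 7.40 CPM in LFD (-0.07 ± 0.20). Of 16 regulators tested 6 were higher and 10 lower (median -0.11), among them the small Maf partner Mafk (-0.53 ± 0.37), the KEAP1 binding protein Sqstm1 (-0.29 ± 0.26), Atf4 (0.07 ± 0.26) and Nfe2l1 (0.32 ± 0.23).

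Of 23 further NRF2 targets tested, with Nqo1 among them, 8 were higher and 15 lower (median -0.20). The ferritin gene Fth1 had -0.28 ± 0.31, the biliverdin reductase gene Blvrb -0.80 ± 0.52 and the heme transporter gene Slc48a1 -0.82 ± 0.43. These are named by their level. At an unadjusted p under 0.05 in edgeR, 2 genes of the list were higher, Gsr and Ugdh (0.66 ± 0.22), and 0 were lower. Of all genes, 7.53% had such a p. Of 10 genes that supply NADPH, the reductant on which Gsr and Txnrd1 draw, 6 were higher and 4 lower (median 0.17). G6pdx, the entry enzyme of the pentose phosphate pathway, measured 86.9, 108 and 114 CPM in HFD 2, 3 and 4 against 56.4, 59.0, 70.5 and 70.5 CPM in LFD 1, 2, 3 and 4. The diets did not overlap, and the log2 fold change was 0.68 ± 0.19 (adjusted p = 0.352 in edgeR), with 0.24 to 0.89 over the 17 alternatives. Taldo1, Tkt and Mthfd2 had -0.40 ± 0.35, -0.14 ± 0.28 and -0.07 ± 0.43. G6pdx and Pgd (0.95 ± 0.32) were the 2 higher NADPH genes at an unadjusted p under 0.05 in edgeR, with 0 lower.

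**Figure D5:**
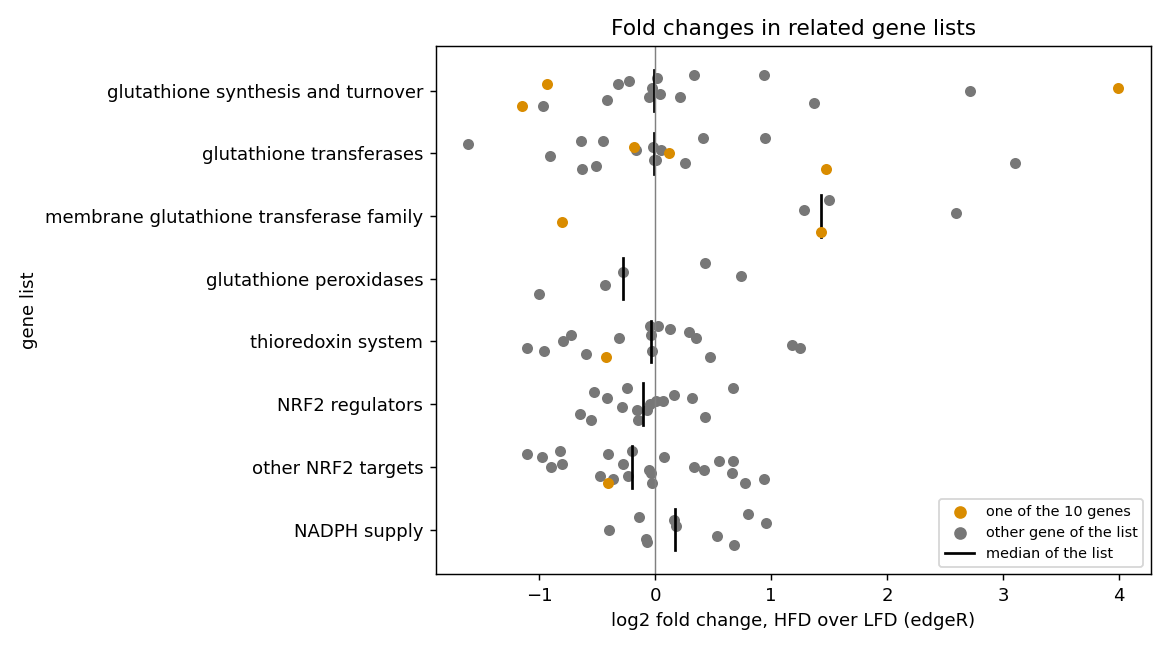
Log2 fold changes, HFD over LFD (edgeR), of the tested genes of 8 lists, with the 10 genes in orange, other genes in grey and a black line at each list's median. The median of the membrane glutathione transferase family is 1.43, the value of Mgst1 itself, and the other medians lie between -0.28 and 0.17.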

How the data were processed

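Per the labels' protocols, the sorted cells were lysed, and their RNA went through SMART-Seq v4 amplification and Nextera XT tagging before paired-end sequencing. The deposited values are whole-number counts per Ensembl gene, which the authors did not normalize. Per the submitters' processing notes the build was mm10, and the tools listed, with no roles, include STAR 2.5.2b, cutadapt, HTSeq 0.11.2, bcl2fastq 2.20 and DESeq2 1.26.0. How strand and multiply mapped reads were treated was not given in the sources used here. PCR without molecular identifiers means that limits cover counting error only.

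All 7 libraries entered edgeR 4.0.16 in R 4.3.3 (TMM, filterByExpr, robust quasi-likelihood fit, diet as sole term, Benjamini-Hochberg over 14304 genes, threshold 0.05). SE is the log2 fold change divided by the root of F. Symbols matched 42250 of 42687 identifiers, and GENCODE M21 (GRCm38, the same assembly as mm10) gave places and merged exon lengths. Relations to marker shares used log2(CPM + 0.5) and exact two-sided permutation of the 7 libraries. Likeness used log2 CPM with a prior count of 2. The procedure was tested on simulated data, with no outcome given here, and no error rate for these libraries is drawn from that.

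Members, lists and tests were chosen with earlier results of these data known. From each list the up to 4 non-members of highest mean CPM are named, with Nfe2l2 and Keap1 always. Gpx1, Cat and Prdx2 are named by that rule and grouped by their shared order after it was seen. Prdx5, Ugdh, Glrx, Pgd and Gstp3 were named after their values were seen, and are not counted among the named genes below. Between libraries, chi-square over its degrees of freedom was 53.8 to 618, so none repeated another, and nothing in the labels says that libraries came from separate animals, so that p-values may in part measure technical spread. Alternatives were RLE and upper-quartile scaling, other filters, a fit without robust estimates, DESeq2 1.42.0, limma-voom (limma 3.58.1), a looser threshold, each library left out, a replicate block, an adjustment without sex-linked genes and, added after seeing the data, marker shares as covariates.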

Additional observations from a re-analysis of the deposited data

Results flagged for a closer look

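Over 54 sets of 4 LFD values tested for a library far from the rest, of the named genes and the marker lists, 1 had one, where chance gives about 1 in 20. The 6 mast cell and basophil markers took 0.000459% of counts in LFD 4, while LFD 1, 2 and 3 had no count of any of them. Of the counts in LFD 4, 89 were of Kit, which is not specific to mast cells, and 5 of Mcpt8, and the other 4 markers were at 0. The HFD libraries had 0.000263% to 0.00110%, with 255, 99 and 40 counts of Kit in HFD 2, 3 and 4.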

How the results depend on the processing

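Of the 10 members, Mgst1, Slc7a11, Gsta4, Gclc and Txnrd1 kept the sign of their log2 fold change in all 17 alternatives run, with ranges of 1.32 to 1.47, 2.93 to 4.73, 0.76 to 4.65, -1.82 to -0.32 and -0.72 to -0.30. The number of members called was 2 with DESeq2, 1 with limma-voom and 1 at an adjusted p under 0.1, and 0 otherwise. The number of all genes called was 8 with no filter beyond 1 count, 0 with at least 10 counts in 4 libraries, 291 with DESeq2, 28 with limma-voom, 10 at an adjusted p under 0.1, 0 without sex-linked genes in the adjustment, 1 with the erythroid share, 0 with the neutrophil share and 1 to 6 with a library left out. The labels give HFD and LFD libraries shared numbers, but the correlation of deviations between libraries of the same number was -0.0950, 0.0263 and -0.0620 for numbers 2, 3 and 4. No pairing by number was seen, but so few values, in libraries of differing cell content, cannot exclude one. HFD 2 correlated best with LFD 1 (0.189) and HFD 4 with LFD 3 (0.126). With the replicate block 0 genes and 0 members were called. RLE and upper-quartile scaling moved the median of all genes by -0.02 and 0.02.

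Signs turned as follows, and the cause was not tested. With the erythroid share they turned for Mgst3 (0.18), Gstp1 (-0.0902), Gclm (0.14), Nqo1 (0.10), Slc3a2 (0.24), Chac2 (0.19), Gstm5 (0.12), Gstz1 (-0.48), Gpx4 (0.13), Prdx2 (0.22), Glrx5 (0.00839), Prdx3 (0.20), Prdx1 (-0.0359), Sqstm1 (0.0287), Mafk (0.13), Nfe2l1 (-0.0127), Fth1 (0.10), Blvrb (0.18), Taldo1 (0.17), Tkt (0.22) and Mthfd2 (0.68). With the neutrophil share they turned for Gstm1 (0.23), Gstm5 (0.18), Gsto1 (1.06), Gstz1 (-0.37), Gpx3 (0.42), Atf4 (-0.43) and Keap1 (0.19). With the replicate block they turned for Gstm1 (0.0392), Abcc1 (0.16), Gsto1 (0.59) and Atf4 (-0.0839). With limma-voom they turned for Gstm5 (0.0195), Gsto1 (0.11), Gstz1 (-0.29) and Mthfd2 (0.11), with upper-quartile scaling for Abcc1 (0.0117) and Gsto1 (0.00717), and with no filter for Gsto1 (0.00364). Leaving out a library gave ranges across 0 for Abcc1 (-0.33 to 0.32), Gstm5 (-0.32 to 0.0111), Gsto1 (-0.26 to 0.55), Gstz1 (-0.20 to 0.44), Atf4 (-0.0723 to 0.29), Tkt (-0.31 to 0.0120), Mthfd2 (-0.30 to 0.25) and Keap1 (-0.19 to 0.0296). Without HFD 2 the log2 fold change kept its sign and was closer to 0 by over 1.5 times for 4 of the 10 members (Mgst3, Gstp1, Gclm and Nqo1) and for 16 of the 33 other named genes. It changed sign for 0 members and for 4 of the 33 others. Depth limits Gsta4 and Slc7a11, whose LFD libraries hold 0 to 37 and 2 to 17 counts.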
